A study of Homo sapiens with 6 samples.

Results

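The 45 genes described here are autosomal genes of the germline, chosen by symbol from the PIWI-interacting RNA (piRNA) pathway, from meiosis and from germ cell regulators, and located among the 60483 gene rows of the count table by their Ensembl identifiers without version. All 45 were found. RNA-seq was performed on HAP1 cells (C631), a near-haploid human line labelled as chronic myelogenous leukemia, and on HAP1 HELLS KO cells, with 3 libraries of each genotype. The HELLS KO cells were a purchased CRISPR clone with an insertion of a base in exon 3 of HELLS, a SNF2 family chromatin remodeler, and both genotypes were grown normally with no treatment. Since the knockout was represented by 1 clone, a difference due to HELLS and a difference due to that clone cannot be told apart. Replicate 3 of both genotypes carried a batch label that the other libraries lacked.

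Germ cells depend on genes that most body cells keep off. piRNAs are short RNAs bound by PIWI proteins, and together with Tudor domain proteins, helicases and nucleases they silence transposons in the developing germline. In meiosis, the homologous chromosomes break and recombine their DNA while they are held along a protein axis that matures into the synaptonemal complex. In somatic cells many of these genes have CpG-rich promoters that are held silent by DNA methylation and by a repressive complex with E2F6, MGA and PCGF6. HELLS has been linked to DNA methylation in other settings. In HAP1 cells, the study that made these libraries reported by ELISA no effect of HELLS loss on global CpG methylation. That assay does not resolve single promoters.

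Library totals ranged from 13641237 to 24400187 counts, and replicate 3 was 1.73 times as deep as the mean of the other replicates in HAP1 and 1.68 times in HELLS KO. A floor of 3 counts therefore stood for 0.123 to 0.22 CPM (counts scaled by library size), which covers counting error only. HELLS itself, the targeted gene, had 1444, 1488 and 3671 counts in HAP1 cells and 1410, 1375 and 2802 in the knockout, for a log2 fold change of -0.24 (SE 0.18, n = 3 and 3, edgeR quasi-likelihood test, adjusted p = 1.0), so its read count did not check the genotype labels. Of the 10 blood cell markers examined, 5 did not pass 3 counts in any library, none passed 19 counts, and the summed level was 1.05 to 1.75 CPM in HAP1 and 1.12 to 1.77 CPM in HELLS KO. The defining markers of the labelled leukemia were thus at or near 0, with PTPRC, the common leukocyte antigen, at 0, 0 and 2 counts in either genotype.

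The stretches of DNA just upstream of the starts of 4 genes are shown because these are DAZL, the gene that passed the test, and 3 of the 5 genes that DESeq2 called higher, and because CpG dinucleotides, printed in capitals, are the sites that DNA methylation acts on. The other 2 of the 5, MAEL and SPATA22, had fewer than 100 such bases outside exons. They come from the RefSeq table of GRCh38.p14, on the strand of the gene, 5′ to 3′, and leave out bases that lie in exons of protein-coding genes. DAZL, which was lower in HELLS KO, has 28 CpG in the 250 bases at chr3:16605424-16605673 on the minus strand, which lie inside the longer gene span of GENCODE. TDRD5 has 6 CpG in the 250 bases at chr1:179591363-179591612, TDRD6 has 19 CpG in the 240 bases at chr6:46687635-46687874 and TDRD9 has 31 CpG in the 186 bases at chr14:103928270-103928455, all on the plus strand. Of these 4 windows, that of TDRD5 had the fewest CpG and that of TDRD9 the most.
DAZL: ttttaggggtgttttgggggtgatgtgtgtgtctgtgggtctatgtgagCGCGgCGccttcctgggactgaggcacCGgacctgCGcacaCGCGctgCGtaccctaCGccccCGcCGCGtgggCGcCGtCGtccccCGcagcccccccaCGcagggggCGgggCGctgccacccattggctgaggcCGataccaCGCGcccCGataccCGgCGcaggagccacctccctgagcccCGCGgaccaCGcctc
TDRD5: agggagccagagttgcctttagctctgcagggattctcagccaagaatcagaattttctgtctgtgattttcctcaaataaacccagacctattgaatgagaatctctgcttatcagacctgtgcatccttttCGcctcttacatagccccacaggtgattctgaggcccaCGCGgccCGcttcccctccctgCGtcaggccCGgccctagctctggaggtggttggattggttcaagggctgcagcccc
TDRD6: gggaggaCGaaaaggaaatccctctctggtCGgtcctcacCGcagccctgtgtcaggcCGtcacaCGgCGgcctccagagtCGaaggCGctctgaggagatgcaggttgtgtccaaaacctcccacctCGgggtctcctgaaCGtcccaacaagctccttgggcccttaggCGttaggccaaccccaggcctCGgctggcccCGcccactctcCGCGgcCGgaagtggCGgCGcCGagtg
TDRD9: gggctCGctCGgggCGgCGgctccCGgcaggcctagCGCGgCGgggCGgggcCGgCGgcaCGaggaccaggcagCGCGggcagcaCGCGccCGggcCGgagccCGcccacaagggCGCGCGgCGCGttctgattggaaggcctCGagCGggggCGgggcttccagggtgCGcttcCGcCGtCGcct

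Most of the 45 genes were silent, too scarce to test or did not pass the test. DAZL was lower in HELLS KO by 2.36-fold and was the only gene among the 17 of the 45 that could be tested to pass in either direction. TDRD9, MAEL and SPATA22 had 0 counts in every HAP1 library and low counts in HELLS KO, and TDRD5 and TDRD6 had up to 14 and 6 counts in HAP1 and more in HELLS KO. These 5 genes were called higher by DESeq2, but their calls depended on the fit. Calls here needed an adjusted p under 0.05 in the edgeR quasi-likelihood test (Benjamini-Hochberg over all tested genes) and a log2 fold change of 1 or more in either direction. By that rule 0 of the 17 members tested were called higher and 1 was called lower, where over all 17925 genes tested 1.50% were called higher (269) and 0.720% lower (129). At an unadjusted p under 0.05 in the same test, 3 members were higher (TDRD5, TDRD6 and STK31) and 3 lower (DAZL, TEX19 and SYCP2), where 3.29% of all tested genes were higher at that limit and 3.3% lower. TDRD5 and TDRD6 entered the test through their HELLS KO counts, so nothing is read from the count of higher members. DESeq2, which fits low counts too, called 5 members higher and 1 lower, against 1.18% and 0.679% of the 35791 genes it fitted. The median log2 fold change was -0.01 over the 17 tested members and 0.006 over all tested genes. These are bulk samples, in which fewer cells that express a gene and less RNA per cell cannot be told apart, and the labels do not say that the libraries came from separate cultures, so the p-values measure the spread between these libraries.

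By level, the 45 genes fell into 3 classes. Of them, 13 were silent in both genotypes, with at most 3 counts in each of the 6 libraries. Another 32 passed 3 counts in some library, and 17 of these had enough counts to be tested while 15 did not. A limit of 10 counts in place of 3 gave 21 silent genes. In 6 genes (MAEL, TDRD9, MOV10L1, SPATA22, PRDM9 and SLC25A31) every HAP1 library stayed at or under 3 counts while a HELLS KO library passed it, and in 3 (MEI1, MEIOB and DNMT3L) the order was the other way round. The heat map of levels sets the 32 genes side by side.

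**Figure D1:**
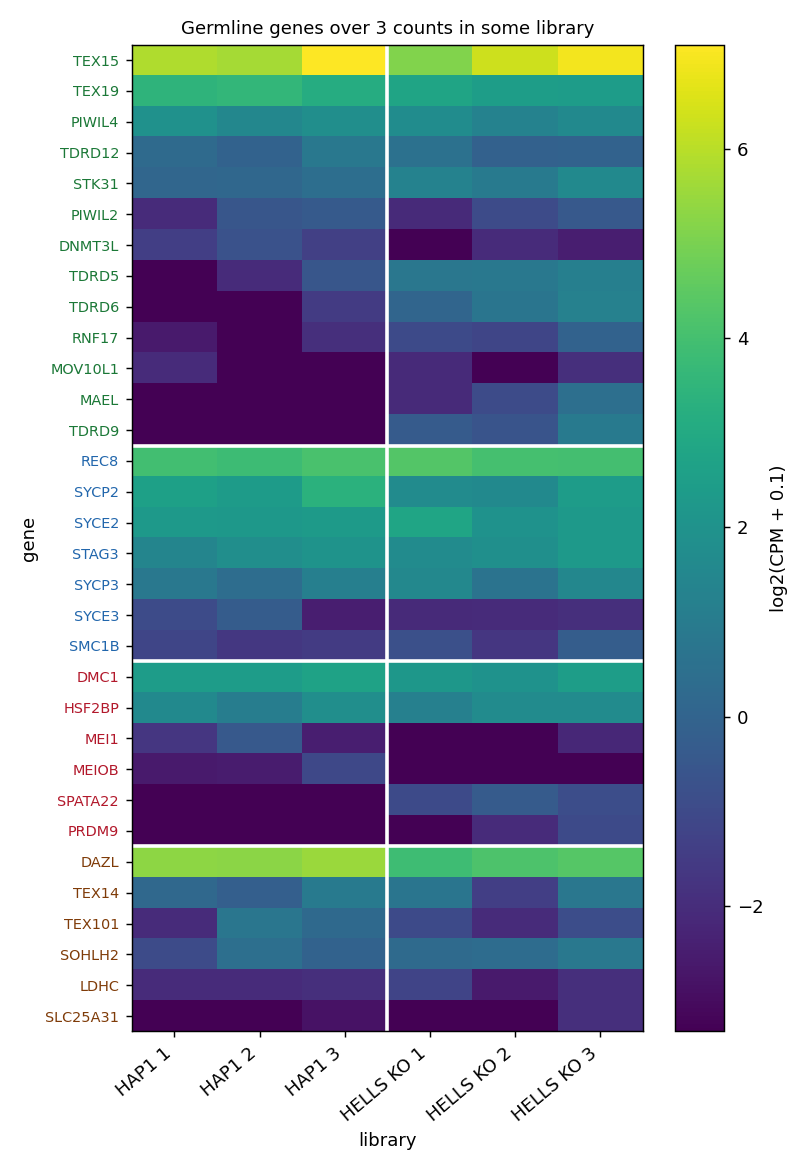
Level of the 32 genes with more than 3 counts in some library, as log2(CPM + 0.1), with 1 row per gene and 1 column per library. White lines separate the 4 roles and the genotypes, the label colours mark the roles (from top to bottom, piRNA pathway, chromosome axis and synaptonemal complex, recombination, and germ cell regulators), and the darkest cells hold 0 counts. DAZL and TEX15 are bright in all 6 libraries, while TDRD9, MAEL and SPATA22 are at 0 in the HAP1 columns only.

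The silent genes included core genes of both processes. SPO11, which makes the DNA breaks that start meiotic recombination, did not pass 3 counts in any library. SYCP1 and SYCE1, which form the transverse filament and central element of the synaptonemal complex, and HORMAD1 and HORMAD2, which mark the unpaired chromosome axis, were silent too. In the piRNA pathway the helicase DDX4 (VASA), the PIWI protein PIWIL1, the Tudor protein TDRD1 and ASZ1 were silent. Among the regulators and testis proteins, the bromodomain protein BRDT, the early germline factors DPPA3 and DPPA5, and ADAD1 were silent. TDRD1, PIWIL1, BRDT and DPPA5 had 0 counts in all 6 libraries. Summed over the 13 silent genes, a library held 0 to 13 counts.

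DAZL, an RNA-binding protein that germ cells need to enter gametogenesis, was among the most abundant of the 45 genes. It had 572, 534 and 1101 counts in HAP1 cells and 212, 261 and 489 in the knockout, that is 40.2, 38.8 and 45.9 CPM against 14.6, 18.3 and 20.1 CPM. The 3 HELLS KO libraries were all below the 3 HAP1 libraries, with a gap wider than the spread within either genotype. In the deposited FPKM, which is scaled by gene length too, DAZL stood at 11.3 ± 0.927 in the HAP1 libraries and 4.77 ± 0.766 in HELLS KO (SD, n = 3 each). DAZL fell by 1.24 on the log2 scale (SE 0.17, edgeR quasi-likelihood test, adjusted p = 0.013). With replicate number as a block the value was -1.24 (SE 0.12, adjusted p = 0.00069), and in replicates 1 and 2 alone, which carry no batch label, it was -1.29 (edgeR, adjusted p = 0.015). Replicate 3 holds 1 library per genotype and allows no test. Leaving out HAP1 replicate 1 gave -1.26 with an edgeR adjusted p of 0.055, and leaving out HELLS KO replicate 2 gave -1.26 with an edgeR adjusted p of 0.09, so the call rested on each of these libraries while the size did not.

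DAZL lies on chromosome 3, where GENCODE release 44 places it from 16586792 to 16670306 on the minus strand (GRCh38). A long noncoding RNA on the same strand, ENSG00000229271, overlaps it and had 214, 203 and 379 counts in HAP1 cells and 133, 93 and 230 in the knockout, for a log2 fold change of -0.86 (SE 0.20, edgeR adjusted p = 0.12). Reads of genes that overlap on a strand cannot be assigned with certainty, and the part that shared reads play in either value was not tested. CDYLP1, a pseudogene 22439 bases to the right, gave -1.05 (SE 0.31, edgeR adjusted p = 0.29), and RFTN1, 72766 bases to the left, gave 0.22 (SE 0.45, edgeR adjusted p = 1.0). No neighbour of DAZL that was tested was called.

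**Figure D2:**
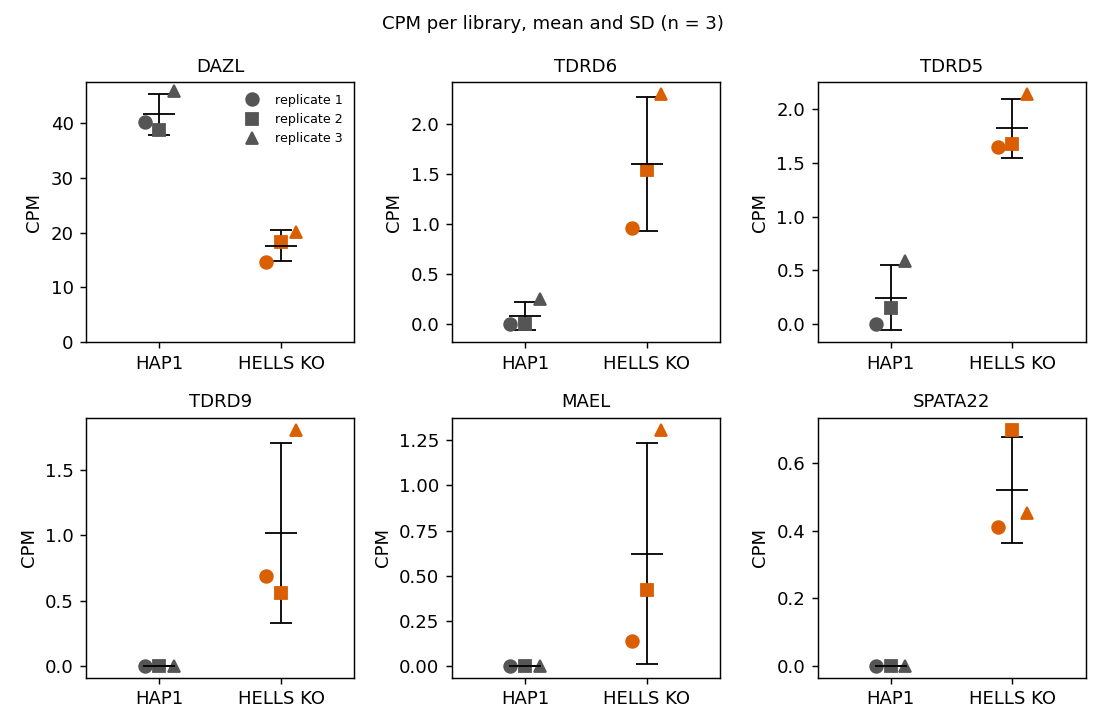
CPM in each library for DAZL and for the 5 genes that DESeq2 called higher, with 1 panel per gene and its own linear axis. Points are libraries, with the shape giving the replicate, and bars are the mean and SD of 3 libraries. The HELLS KO libraries lie below all HAP1 libraries for DAZL and above all of them in the other panels.

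The piRNA pathway and transposon silencing held 17 of the 45 genes, of which 13 passed 3 counts in some library. In 6 of these 13 the HELLS KO libraries all lay above the HAP1 libraries (MAEL, TDRD5, TDRD6, TDRD9, RNF17 and STK31) and in 2 they all lay below (TEX19 and DNMT3L). Over the 32 members above the floor the counts were 7 above and 4 below, where 5.44% of the 27021 genes above the floor lay wholly above and 5.31% wholly below. Of the genes above the floor, none of the chromosome axis group and none of the germ cell regulators lay wholly above. Below the floor, the axis gene HORMAD2 had 0 counts in each HAP1 library and 2 in each HELLS KO library. These orderings carry no test of their own and many rest on few counts. A gene such as MAEL, TDRD9 or SPATA22 that passed the floor only in HELLS KO had to be higher there, so nothing is read from these counts.

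TDRD5 and TDRD6 encode Tudor domain proteins of the germ granules in which piRNAs are made. TDRD5 had 0, 2 and 14 counts in HAP1 cells and 24, 24 and 52 in the knockout, or 0.243 ± 0.304 CPM and 1.82 ± 0.272 CPM (SD, n = 3 each). TDRD6 had 0, 0 and 6 counts in HAP1 cells and 14, 22 and 56 in the knockout, or 0.0834 ± 0.144 CPM and 1.6 ± 0.671 CPM. In both genes the HAP1 libraries lay below every HELLS KO library, as they did in 3 of the 17 tested members (these and STK31) and in 4.99% of all tested genes, and the highest HAP1 library was replicate 3. No HAP1 library reached the level of 0.686 CPM that the filter on low counts asked for, so both genes were tested through their HELLS KO counts, and the count of 3 is in part fixed by the filter. The log2 fold change was 2.70 for TDRD5 (SE 0.78, edgeR adjusted p = 0.26). For TDRD6 it was 3.84 (SE 0.89, edgeR adjusted p = 0.11), so that neither passed the test. With replicate number as a block both were called, at 2.83 (edgeR adjusted p = 0.045) for TDRD5 and 3.99 (edgeR adjusted p = 0.012) for TDRD6, and in that fit 2.03% of all tested genes were called higher and 1.49% lower, DAZL among the latter. Without HAP1 replicate 3 they were also called, at 4.53 and 7.73, each with an edgeR adjusted p of 0.035. That fit keeps the deeper, batch-labelled replicate 3 in HELLS KO only, so batch and genotype are partly mixed in it. In replicates 1 and 2 alone the values were 4.36 (edgeR adjusted p = 0.058) and 7.15 (edgeR adjusted p = 0.062), and neither gene was called. DESeq2 called both, at 2.78 (adjusted p = 0.024) for TDRD5 and 3.99 (adjusted p = 0.0028) for TDRD6.

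TDRD9, a helicase with a Tudor domain, had 0 counts in the 3 HAP1 libraries and 10, 8 and 44 in HELLS KO. MAEL (maelstrom), which acts in transposon silencing, likewise had 0 counts in the 3 HAP1 libraries and 2, 6 and 32 in HELLS KO. SPATA22, a partner of MEIOB in the repair of meiotic breaks, had 0 counts in HAP1 cells and 6, 10 and 11 in the knockout. All 3 genes thus had counts in every HELLS KO library and in no HAP1 library. In HELLS KO replicate 1, however, MAEL had 2 counts, under the floor of 3. For TDRD9 and MAEL replicate 3 of HELLS KO was the highest, at 1.81 and 1.31 CPM. Against a floor of 3 counts in each HAP1 library (a mean of 0.185 CPM), the mean of TDRD9 was at least 5.5-fold higher in HELLS KO. For MAEL it was at least 3.35-fold and for SPATA22 at least 2.79-fold. These bounds leave out the spread in HELLS KO, which for MAEL was 0.624 ± 0.614 CPM (SD, n = 3). Without HELLS KO replicate 3, which held most of the TDRD9 and MAEL counts, the bounds were 3.37-fold, 1.48-fold and 2.97-fold. GENCODE places TDRD9 on chromosome 14, MAEL on chromosome 1 and SPATA22 on chromosome 17. None of the 3 had enough counts to enter the edgeR test of all 6 libraries. TDRD9 entered it without HAP1 replicate 1 (edgeR adjusted p = 0.13), 2 (0.11) or 3 (0.094) and without HELLS KO replicate 2 (0.17). It was not called in any of these fits. Without the filter on low counts, 4 members were called higher and DAZL lower, against 1.16% and 0.559% of the 35791 genes then tested. The 4 were TDRD6 and these 3 genes, with edgeR adjusted p of 0.0024 for TDRD9, 0.028 for MAEL and 0.03 for SPATA22, and DESeq2 gave adjusted p of 0.00063, 0.023 and 0.025. On log2(FPKM + 1) limma gave 0.24 for TDRD9 (adjusted p = 0.48), 0.25 for MAEL (adjusted p = 0.79) and 0.24 for SPATA22 (adjusted p = 0.14). With HAP1 at 0 and FPKM under 1 in each HELLS KO library, the added 1 kept these sizes under the cut-off. No call was possible there, so nothing is read from the lack of one. On log2(FPKM + 0.1) SPATA22 was called (limma adjusted p = 0.042), and TDRD9 and MAEL were not.

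Even in HELLS KO these genes remained scarce. The deposited FPKM was 0.421 ± 0.0651 for TDRD5, 0.174 ± 0.0736 for TDRD6, 0.183 ± 0.124 for TDRD9, 0.195 ± 0.193 for MAEL and 0.179 ± 0.0521 for SPATA22 (SD, n = 3 each). For comparison on the same scale, DAZL was at 4.77 in the HELLS KO libraries and TEX15 at 6.6. Of the 96 member counts between 1 and 20, 69 were even (71.9%), where over all genes 56.8% to 62% of such counts in a library were even. Where both mates of a pair are counted, 2 counts stand for 1 fragment, and whether that holds here was not tested.

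Of the genes next to or overlapping these 5 loci, none that was tested was called. TDRD9 lies 187 bases from ATP5MJ, a mitochondrial ATP synthase gene on the opposite strand, which had 788, 769 and 1164 counts in HAP1 cells and 912, 769 and 1160 in the knockout (log2 fold change 0.04, SE 0.15, edgeR adjusted p = 1.0). SPATA22 is overlapped on its own strand by TRPV3, a cation channel gene with 40, 24 and 36 counts in HAP1 cells and 10, 14 and 32 in the knockout (log2 fold change -0.99, SE 0.41, edgeR adjusted p = 0.71). Next to TDRD5, SOAT1 gave -0.03 and FAM163A -0.67, next to TDRD6, SLC25A27 gave 0.38 and TNFRSF21 0.19, and next to MAEL, TADA1 gave 0.00 and POU2F1-DT 0.55, all with an edgeR adjusted p of 1.0. Overlapping genes with too few counts to test included ENSG00000280268, on the strand of SPATA22, with 0 counts in each HAP1 library and 4, 0 and 2 in HELLS KO.

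RNF17 and STK31, both Tudor domain proteins, also lay wholly above in HELLS KO. STK31 had 14, 14 and 30 counts in HAP1 cells and 34, 26 and 72 in the knockout, giving a log2 fold change of 1.12 (SE 0.33, edgeR adjusted p = 0.29). RNF17 had 1, 0 and 4 counts in HAP1 cells and 6, 5 and 21 in the knockout, which was too few for the edgeR test (DESeq2 adjusted p = 0.58). MOV10L1, the helicase that feeds piRNA precursors to PIWI proteins, had 2, 0 and 0 counts in HAP1 cells and 2, 0 and 4 in the knockout, so it barely passed the floor.

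TEX19, TEX15 and PIWIL4 were the best expressed genes of this group. TEX19, a mammal-specific gene that restrains retrotransposons, had 154, 164 and 207 counts in HAP1 cells and 96, 78 and 128 in the knockout, or 5.34 ± 0.891 and 2.93 ± 0.371 FPKM (SD, n = 3 each). Its HELLS KO libraries lay below the HAP1 libraries in CPM, as those of 2 of the 17 tested members (TEX19 and DAZL) and of 5.09% of all tested genes did, with a log2 fold change of -0.86 (SE 0.22, edgeR adjusted p = 0.17). With replicate number as a block its edgeR adjusted p was 0.037 at -0.85, a size under the cut-off of 1. TEX15, which directs piRNA-guided DNA methylation of transposons, had 828, 719 and 3282 counts in HAP1 cells and 503, 1139 and 2936 in the knockout. Its highest libraries were replicate 3 of either genotype, at 137 CPM in HAP1 and 121 CPM in HELLS KO, against 34.6 to 79.7 CPM in the other 4. The log2 fold change of TEX15 was -0.08 (SE 0.51, edgeR adjusted p = 1.0), and the SD within either genotype exceeded the difference between their means. In replicates 1 and 2 alone the log2 fold change was 0.03, and the part of the batch in the replicate 3 values was not tested.

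PIWIL4, the PIWI protein that acts in the nucleus, had 53, 38 and 83 counts in HAP1 cells and 48, 34 and 72 in the knockout (log2 fold change -0.20, SE 0.27, edgeR adjusted p = 1.0). PIWIL2, which acts in the cytoplasm, had 2, 8 and 16 counts in HAP1 cells and 2, 6 and 16 in the knockout. The groups overlapped for both genes. TDRD12, a helicase of the pathway, had 16, 12 and 41 counts in HAP1 cells and 20, 12 and 21 in the knockout (log2 fold change -0.30, SE 0.42, edgeR adjusted p = 1.0). DNMT3L, the cofactor of de novo DNA methylation in germ cells, had 4, 7 and 7 counts in HAP1 cells and 0, 2 and 2 in the knockout, and was not tested.

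**Figure D3:**
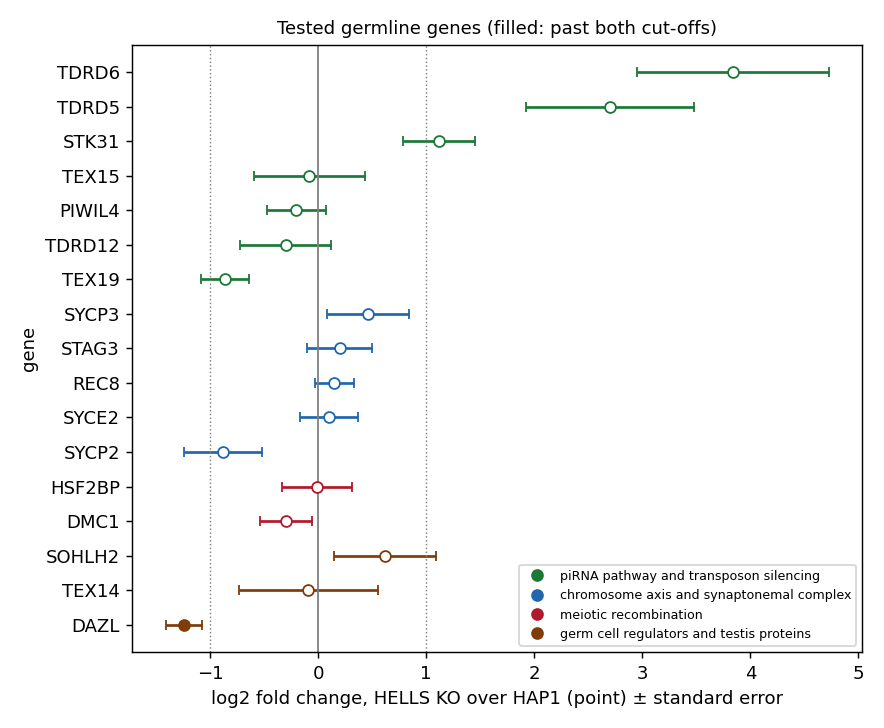
Log2 fold change of the 17 tested genes, HELLS KO over HAP1 (point), with its standard error (bar), from the edgeR quasi-likelihood fit to 3 and 3 libraries. Colours mark the role, dotted lines the cut-off of 1 on either side, and the filled point is the gene that passed the test, DAZL. TDRD6 and TDRD5 have the highest values and the widest bars among genes above 0.

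Of the 11 genes of the chromosome axis and synaptonemal complex, 7 passed 3 counts, 5 were tested and none was called. REC8, the meiotic cohesin kleisin, had 220, 192 and 406 counts in HAP1 cells and 285, 232 and 385 in the knockout, or 3.96 ± 0.354 and 4.4 ± 0.536 FPKM (log2 fold change 0.15, SE 0.18, edgeR adjusted p = 1.0). STAG3, its cohesin partner, had 37, 48 and 96 counts in HAP1 cells and 46, 50 and 119 in the knockout (log2 fold change 0.20, SE 0.30, edgeR adjusted p = 1.0). Both cohesin genes overlapped between genotypes. SYCP2, a component of the axis, had 85, 72 and 239 counts in HAP1 cells and 46, 42 and 131 in the knockout, giving a log2 fold change of -0.88 (SE 0.36, edgeR adjusted p = 0.70). Within each replicate number SYCP2 was lower in HELLS KO, at 3.16 against 5.98 CPM, 2.94 against 5.24 CPM and 5.38 against 9.96 CPM, yet replicate 3 of HELLS KO lay above replicate 2 of HAP1. With replicate number as a block its edgeR adjusted p was 0.043 at -0.88, also under the cut-off on size. SYCP3, which binds SYCP2, had 24, 17 and 51 counts in HAP1 cells and 41, 21 and 66 in the knockout (log2 fold change 0.46, SE 0.38, edgeR adjusted p = 1.0).

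SYCE2, a central element protein, was at 3.26 ± 0.0877 FPKM in HAP1 and 3.49 ± 1.01 in HELLS KO (log2 fold change 0.10, SE 0.27, edgeR adjusted p = 1.0), and its SD was wider in HELLS KO. SYCE3, of the same structure, had 6, 10 and 2 counts in HAP1 cells and 2, 2 and 4 in the knockout, and the cohesin subunit SMC1B had 5, 3 and 6 against 7, 3 and 18. Neither was tested. SYCE2 was thus present while SYCP1, the filament that central element proteins attach to, was silent in every library.

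Of the 7 recombination genes, 6 passed 3 counts, 2 were tested and none was called. DMC1, the meiotic recombinase, had 76, 74 and 152 counts in HAP1 cells and 66, 55 and 132 in the knockout (log2 fold change -0.30, SE 0.24, edgeR adjusted p = 1.0). HSF2BP, which binds BRCA2 in the loading of recombinases, had 43, 28 and 83 counts in HAP1 cells and 32, 45 and 77 in the knockout (log2 fold change -0.01, SE 0.32, edgeR adjusted p = 1.0). The groups overlapped for both. MEIOB, the partner of SPATA22, had 1, 1 and 9 counts in HAP1 and 0 in each HELLS KO library, and was too scarce for the edgeR test. Its order was opposite to that of SPATA22, both at low counts. MEIOB passed the floor of 3 counts only in HAP1 replicate 3, so nothing is read from the opposite order. PRDM9, the histone methyltransferase that places recombination hotspots, had 0 counts in HAP1 cells and 0, 2 and 10 in the knockout. The groups overlapped for PRDM9, and replicate 3 held most of its counts. MEI1, needed to form meiotic breaks, had 3, 9 and 2 counts in HAP1 cells and 0, 0 and 3 in the knockout.

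Of the 10 germ cell regulators and testis proteins, 6 passed 3 counts and DAZL, TEX14 and SOHLH2 were tested. SOHLH2, a transcription factor of early germ cells, had 6, 18 and 21 counts in HAP1 cells and 16, 17 and 41 in the knockout (log2 fold change 0.62, SE 0.47, edgeR adjusted p = 1.0). TEX14, a protein of the bridges between germ cells, had 15, 11 and 45 counts in HAP1 cells and 23, 4 and 40 in the knockout (log2 fold change -0.09, SE 0.64, edgeR adjusted p = 1.0). The groups overlapped for both genes here too. TEX101, a surface protein of germ cells, had 2, 22 and 26 counts in HAP1 cells and 6, 2 and 11 in the knockout. LDHC, the lactate dehydrogenase of testis, had 2, 2 and 4 against 5, 1 and 4 counts, and SLC25A31, the testis ADP/ATP carrier, had 0, 0 and 1 against 0, 0 and 4, and none of these 3 was tested.

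Ordered by FPKM in HAP1, DAZL stood at 11.3 ± 0.927, TEX15 at 6.95 ± 3.92, TEX19 at 5.34 ± 0.891, REC8 at 3.96 ± 0.354 and SYCE2 at 3.26 ± 0.0877. The SD of TEX15 covered the values of TEX19 and REC8, so these neighbours did not differ beyond their spread. In HELLS KO TEX15 was at 6.6 ± 3.65, DAZL at 4.77 ± 0.766, REC8 at 4.4 ± 0.536, SYCE2 at 3.49 ± 1.01 and TEX19 at 2.93 ± 0.371. DAZL and REC8 were within their spread of each other there.

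Other autosomal genes of the same pathways were examined with a list of 88 symbols, of which 85 were found and 43 tested. Of these 43, 1 was called higher and 1 lower, 18 of the 85 were silent in both genotypes, and the median log2 fold change over those tested was 0.02. None of the 7 piRNA pathway genes and none of the 24 meiosis genes tested in this list was called by edgeR, and at an unadjusted p under 0.05 there were 0 and 1 (TESMIN, lower). SOHLH1, the partner of SOHLH2 in early germ cells, had 2, 6 and 3 counts in HAP1 cells and 30, 20 and 40 in the knockout and rose by 2.90 on the log2 scale (SE 0.54, edgeR adjusted p = 0.043), having entered the test through its HELLS KO counts. Its call was lost when HAP1 replicate 1 (edgeR adjusted p = 0.2) or 3 (0.089) was left out, and when any of HELLS KO replicates 1 (0.18), 2 (0.16) and 3 (0.12) was. ACTL8, an actin-like gene of testis, had 515, 516 and 1139 counts in HAP1 cells and 215, 124 and 355 in the knockout and fell by 1.67 on the log2 scale (SE 0.24, edgeR adjusted p = 0.014), a call lost without HELLS KO replicate 1 (0.056) or replicate 2 (0.053). The best expressed genes of the 3 parts of the list, PLD6 (27.6 and 27.5 FPKM), TRIP13 (36.8 and 36 FPKM) and DPPA4 (39.4 and 38.4 FPKM), were at like levels in both genotypes.

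None of the 18 examined regulators of germline gene silencing passed the test. All 18 examined were tested with edgeR and 0 were called, nor did any have an unadjusted p under 0.05, with log2 fold changes from -0.16 to 0.18. DNMT1, the maintenance DNA methyltransferase, gave -0.03, its partner UHRF1 gave -0.02, the de novo enzyme DNMT3B gave -0.10 and E2F6 gave 0.02. These are RNA levels, and DNA methylation was not among the measurements used here.

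Markers of spermatids, oocytes, Sertoli and Leydig cells, pluripotent and primordial germ cells, and adherent cells were compared as well. Of 10 spermatid markers, 9 were silent and 4 had 0 counts in every library, PRM1 and PRM2 among them, and the summed level was 1.34 to 3.21 CPM in HAP1 and 2.45 to 2.89 CPM in HELLS KO. The 7 oocyte markers summed to 2.91 to 3.8 CPM and 1.92 to 4.23 CPM. Markers of Sertoli and Leydig cells summed to 20 to 31.4 CPM in HAP1 and 77.2 to 89.7 CPM in HELLS KO, and the called gene among the 8 was GATA4, a transcription factor of several tissues, with 12, 20 and 20 counts against 677, 717 and 1262 (log2 fold change 5.59, SE 0.26, edgeR adjusted p = 0.00019). GATA4 went from 1.04 to 49.5 CPM and so carried the higher sum, while AMH gave 0.65, INHA -0.88 and STAR -1.03 (edgeR adjusted p = 0.73, 0.74 and 0.7) and INSL3, CYP17A1, HSD3B2 and SOX9 were silent. The 9 markers of pluripotent and primordial germ cells, in which DAZL can also be found, summed to 349 to 400 CPM in HAP1 and 264 to 316 CPM in HELLS KO. Among them LIN28A fell by 2.45 (edgeR adjusted p = 0.049) and KIT fell by 2.90 (edgeR adjusted p = 0.015) on the log2 scale, while POU5F1 gave -0.09 (SE 0.22, edgeR adjusted p = 1.0). The other tested genes of that list were SOX2 at -0.09, TFAP2C at 0.04, NANOS3 at 0.35 and PRDM1 at -1.30, none of them called. The 6 markers of adherent epithelial or mesenchymal cells summed to 449 to 500 CPM in HAP1 and 327 to 457 CPM in HELLS KO, where the epithelial genes KRT8 and EPCAM had log2 fold changes of -2.61 and -4.88 (edgeR adjusted p = 0.0015 for each). Over the 6 adherent markers the median log2 fold change was -0.15. LIN28A, KIT, KRT8, EPCAM and DAZL were thus lower in the same libraries, while no other tested marker of the pluripotent or adherent lists was called. The part in the DAZL value of whatever moved the called markers was not tested.

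The windows around the starts of the genes, 250 bases before and 50 after, were described from the RefSeq table, in which 36 of the 45 genes had an entry. TEX14, TEX15, TEX19, PIWIL2, PIWIL4, HORMAD1, MEIOB, DNMT3L and HSF2BP had none. The first listed start of each gene was used. The ratio of observed to expected CpG is low where CpG has been lost. Its median was 0.81 over the 36 genes and 0.58 over the 27305 genes of the table. It was over 0.6 in 83.3% of the 36 (30) and 48.9% of the table. The 36 are all protein-coding, while the table was not limited to such genes. The part of gene type in this contrast was not tested. Among the 12 silent genes with a window the median was 0.74, from 0.12 for DDX4 to 0.93 for HORMAD2. For the 5 genes that DESeq2 called higher it was 0.83, from 0.54 for TDRD5 to 1.12 for MAEL, and for DAZL it was 0.86. The values of the silent genes and those of the 5 genes overlapped. In 6 of the 36 genes (DAZL, DDX4, SYCE1, TEX101, SPATA22 and PRDM9) the RefSeq start lay more than 1000 bases from the end of the GENCODE span, and without such windows the silent genes had a median of 0.75, from 0.39 to 0.93.

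**Figure D4:**
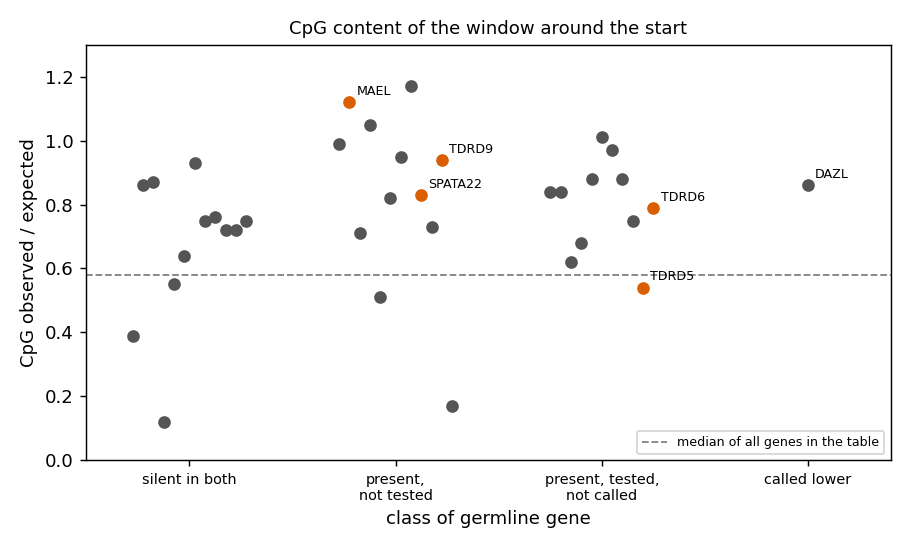
CpG observed over expected in the 300-base window around the start of 36 genes, by class. Orange points are the 5 genes that DESeq2 called higher in HELLS KO, and the dashed line is the median of all genes in the RefSeq table, 0.58. Most points in every class lie above the line, and the orange points lie among the grey ones.

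Motifs were searched on both strands of the same windows. TCCCGC, a core of E2F-type sites, was found in 58.3% of the 36 windows (21). Over the 27305 genes of the table, with 1 window each and not limited to protein-coding genes, it was found in 26.8%. It was found in 7 of the 12 windows of silent genes and in 3 of the 5 of the genes that DESeq2 called higher (MAEL, TDRD9 and SPATA22), but not in those of TDRD5, TDRD6 or DAZL. The E-box CACGTG was found in 7 windows (19.4%, against 7.43%), the cyclic AMP response element TGACGTCA in 1 (2.78%, against 1.98%) and its shorter form TGACG, which lies within it, in 14 (38.9%, against 25%). These windows were richer in CpG than the table as a whole, and TCCCGC and the other motifs contain CpG, so the shares are descriptions of letters and no sign of binding.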

How the data were processed

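Total RNA of HAP1 and HELLS KO cells was made into directional libraries and sequenced as pairs. Per the submitters' processing notes, the authors used STAR 2.7.3a, featureCounts 2.0.6 and DESeq2 1.44.0 on GRCh38. The deposited counts are raw reads per gene (60483 rows), and the deposited FPKM values (24956 rows, 30 of the 45 genes among them) are the authors' values, scaled to gene length and library size. The strand setting of the counting and the annotation release are not given in the sources used here. Symbols came from GENCODE release 44, which matched 56321 rows.

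The counts were fitted with edgeR 4.0.16 (R 4.3.3; filterByExpr by genotype, TMM, quasi-likelihood F test, genotype only) over all 6 libraries, with Benjamini-Hochberg adjustment over the 17925 genes tested. CPM are scaled by TMM. Calls needed an adjusted p under 0.05 with a log2 fold change of 1 or more either way. Silent means at most 3 counts in every library. Alternatives were DESeq2 1.42.0, its size factors in edgeR, no filter, a minimum of 10 counts in all libraries, a replicate block, replicates 1 and 2 only, leaving out each library, and limma 3.58.1 on log2(FPKM + 1) and log2(FPKM + 0.1). Samples of the same number deviated together from their group means, with correlations across genes of 0.416, 0.197 and 0.778 for replicates 1, 2 and 3. Deviations within a genotype cancel out, so a shift shared by replicate 3 alone can make the values of replicates 1 and 2 positive. Libraries of unlike number were not compared, so these values do not show that the numbers pair the libraries. The replicate block is therefore given as an alternative only. The fit was tested on simulated counts of this comparison, with genes changed by 2 on the log2 scale. Of these edgeR found 197 of 198 tested, with 10 false calls among 17566 genes tested, and DESeq2 found 197 of 200 with 8 false calls. The simulation gave every gene the same biological coefficient of variation (0.242), had no batch and drew only on genes that had passed the filter. It therefore does not give the power for scarce or more variable genes such as TDRD5 and TDRD6. Library totals of 13641237 to 24400187 set the floor of 0.123 to 0.22 CPM.

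The genes, the lists and the tests were chosen with earlier results of these data known. Every one of the 45 genes was accounted for. Those over 3 counts were given with values, those called or not overlapping were named, and of the other germline genes the called ones and the highest by FPKM in each part were named. The 5 genes that DESeq2 called higher were grouped after their values were seen, as were the genes whose neighbours were described, DAZL apart. The symbols SPO16, TOP6BL and SIX6OS1 of the other list were not matched.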

Additional observations from a re-analysis of the deposited data

How the results depend on the processing

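The count of the 45 genes called higher was 0 in the edgeR fit, 5 with DESeq2 and 4 with no filter on low counts. It was 2 with the replicate block and 1 with limma on log2(FPKM + 0.1). When each library was left out it was 0 to 2. The 2 came without HAP1 replicate 3, a fit that keeps the batch label in HELLS KO only. The count called lower, 1 (DAZL), was 0 to 1 when each library was left out, with 0 without HAP1 replicate 1 or HELLS KO replicate 2. The replicate block added TDRD5 and TDRD6 to the calls among the 45 genes and changed no other call there. The genes silent in both genotypes numbered 13, and 21 at a limit of 10 counts.

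Over all genes, the 269 called higher became 424 with DESeq2, 415 with no filter, 29 with at least 10 counts in every library, 146 with limma on log2(FPKM + 1) and 112 to 273 with a library left out. The 129 called lower became 243, 200, 48 and 52 under the same settings, 267 with the replicate block, 219 in replicates 1 and 2 only and 40 to 176 with a library left out. The lowest counts, 112 and 40, came without HELLS KO replicate 2. Of the other germline genes, the 1 called higher (SOHLH1) became 0 to 1 with a library left out. It was not called in replicates 1 and 2 only (edgeR adjusted p = 0.11) or on log2(FPKM + 0.1) (limma adjusted p = 0.063). On log2(FPKM + 1) its limma adjusted p was 0.041 at 0.72, under the cut-off on size, which the added 1 shrinks at such levels. The minimum of 10 counts in every library removed SOHLH1 before any test. The 1 called lower became 3 with DESeq2 and 3 with the replicate block, 2 in replicates 1 and 2 only, 0 with at least 10 counts in every library, and 0 to 2 with a library left out. The causes were not tested beyond the number of genes or libraries each setting leaves.

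Genes near 0 changed sign. In replicates 1 and 2 only, TEX15 was at 0.03, TDRD12 at 0.13 and HSF2BP at 0.06, and HSF2BP was at 0.00 and 0.01 with limma on log2(FPKM + 1) and log2(FPKM + 0.1). With a library left out the log2 fold change ran from -0.14 to 0.26 for SYCE2, -0.44 to 0.36 for TEX14, -0.54 to 0.51 for TEX15, -0.55 to 0.03 for TDRD12, -0.03 to 0.35 for STAG3 and -0.19 to 0.17 for HSF2BP. DAZL stayed between -1.35 and -1.12. TDRD5 ran from 2.21 to 4.53 and TDRD6 from 3.4 to 7.73, the highest without HAP1 replicate 3, which held most of their HAP1 counts. A fit that leaves 2 libraries in a genotype has less power, and genes of a few counts, such as TDRD9, MAEL and SPATA22, are limited by depth.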
